A study of Mus musculus with 6 samples.

Results

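The genes of the translation initiation factors were followed in dorsal root ganglia (DRG), the clusters of sensory neurons and glia beside the spinal cord, of mouse embryos at stage E13.5. They were taken from the deposited table by name, as every gene whose symbol starts with Eif1, Eif2, Eif3, Eif4, Eif5 or Eif6, without the eIF2 kinases (Eif2ak names) and without the X-linked and Y-linked genes Eif2s3x, Eif2s3y and Eif1ax. This gave 48 of 17971 genes, and 47 of them were among the 14338 genes with enough counts to be tested. The one left out, Eif4e1b, whose product is known from oocytes, had 1 count in Ctrl replicate 3 and 0 counts in the other 5 libraries.

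The 3 cKO libraries came from Wnt1-cre+/-;Ybx1fl/fl embryos, where Wnt1 regulatory sequence drives Cre in neural crest, the source of the neurons and glia here. Ybx1fl/fl littermates without Cre gave the 3 Ctrl libraries; both groups thus carry the floxed alleles, and effects of Cre itself and of Ybx1 loss cannot be told apart. All embryos are described as male, and whether a library held the ganglia of 1 embryo or of several is not stated. Replicate numbers 1 to 3 are shared by the groups and are called pairs here.

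The libraries held 16464264 to 17446385 estimated counts. Ybx1, which encodes an mRNA-binding cold-shock protein, had 137, 122 and 108 CPM (counts scaled to a common library size) in cKO replicates 1 to 3, against 927, 808 and 817 CPM in Ctrl replicates 1 to 3, so every library went with its label. Other cell types in the ganglia are expected to keep Ybx1, since Cre is driven in neural crest. The source of the remaining Ybx1 counts in cKO was not tested. In such bulk samples fewer cells of a type and less RNA per cell cannot be told apart. Marker genes of sensory neurons (Tubb3, Isl1, Pou4f1, Prph and Avil) summed to 5188 to 5330.3 CPM in cKO and 5052 to 5560.2 CPM in Ctrl. Those of Schwann cells and satellite glia (5 genes) summed to 1275 to 1370 CPM in cKO and 1176 to 1273 CPM in Ctrl. Erythroid markers (8 genes) reached 10658 CPM in cKO replicate 1, against 2591 to 4596 CPM in the other 5 libraries, and macrophage markers (7 genes) 149.9 CPM there, against 88.2 to 105 CPM. Endothelial markers summed to 312 to 349 CPM in cKO and 331 to 349 CPM in Ctrl, those of mesenchyme to 1329 to 1444 CPM in cKO and 1193 to 1411 CPM in Ctrl, and those of dividing cells to 426 to 464 CPM in cKO and 410 to 444 CPM in Ctrl. Skeletal muscle markers were at 7.82 to 11.99 CPM in cKO and 7.14 to 9.65 CPM in Ctrl, and spinal cord markers at 2.70 to 4.84 CPM in cKO and 1.64 to 2.13 CPM in Ctrl, with Pax2, Lhx1, Lbx1 and Olig2 at 0 in at least 1 library. Of the 2 spinal cord markers that could be tested, 1 was called in edgeR both without and with the block (0.481% and 5.33% of all tested genes). Their summed level, over all the spinal cord markers, was higher in every cKO library than in any Ctrl library.

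Initiation factors bring the ribosome to the start codon. The cap-binding protein eIF4E, the scaffold eIF4G and the RNA helicase eIF4A, helped by eIF4B and eIF4H, hold and open the capped end of the mRNA, while eIF1, eIF1A, eIF3 and eIF2 carried with the initiator tRNA sit on the small ribosomal subunit and scan to the start codon. There eIF5 and eIF5B complete the joining of the large subunit, eIF2B recharges eIF2 with GTP, and the 4E-binding proteins hold eIF4E away from eIF4G. The YB-1 protein made from Ybx1 is itself known to bind mRNA and to act on cap-dependent initiation. Some genes that carry an Eif name act elsewhere too: Eif4a3 encodes a core protein of the exon junction complex, Eif5a a factor of elongation, and Eif6 a protein that keeps the large subunit apart from the small one.

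The promoters of the members were read as a property that the choice by name did not use. RefSeq (GRCm38.p6) promoter entries matched 36 of the 48 genes. Within the 250 bases before an annotated start, the E-box CACGTG, a palindrome known to be bound by Myc with Max and by USF factors, was present in 9 of 36 genes (25%), against 9.73% of the 11303 tested genes that have an entry. The ETS-type core CCGGAA, read on both strands, was present in 15 of 36 (41.7%), against 23.5%. CCAAT, on both strands, was present in 33.3%, against 40.6%, and TATAAA, on both strands, in 8.33%, against 8.01%. The median GC content of these windows was 62.4% for the members and 60.0% for all tested genes with an entry, and its part in these shares was not tested. The E-box is shown in capitals with 27 bases on each side for the helicase gene Eif4a1 (chr11:69672580-69672639, minus strand), the scaffold gene Eif4g1 (chr16:20672646-20672705, plus strand) and the eIF3 subunit genes Eif3f (chr7:108934320-108934379, plus strand) and Eif3k (chr7:28981900-28981959, minus strand), as examples from the cap-binding complex and from eIF3.
Eif4a1: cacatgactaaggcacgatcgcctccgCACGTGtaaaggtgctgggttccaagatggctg
Eif4g1: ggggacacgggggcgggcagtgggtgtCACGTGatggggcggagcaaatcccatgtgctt
Eif3f: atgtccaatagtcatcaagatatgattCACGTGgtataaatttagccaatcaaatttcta
Eif3k: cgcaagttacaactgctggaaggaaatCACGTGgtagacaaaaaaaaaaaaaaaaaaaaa
The first base of the E-box lay 189, 54, 68 and 44 bases before the annotated start in these 4 genes.

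Of the 5 members that differed between cKO and Ctrl when the pairs were used, Eif4b and Eif5 have promoter entries. Their 100 bases upstream that lie outside every annotated exon are shown, on the plus strand, as the promoters of genes the results turn on: Eif4b (chr15:102073673-102073772) and Eif5 (chr12:111537916-111538015).
Eif4b: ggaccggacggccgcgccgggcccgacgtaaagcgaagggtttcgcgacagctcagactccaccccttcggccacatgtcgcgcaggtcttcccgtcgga
Eif5: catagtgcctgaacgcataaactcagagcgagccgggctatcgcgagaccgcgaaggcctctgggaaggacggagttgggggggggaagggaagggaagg
The Eif5 stretch ends 85 bases before the annotated start. None of the 4 motifs was found in these 2 stretches on either strand, so they hold no capitals.

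Levels ranged widely within the family. TPM, as deposited, is per transcript length and allows genes to be set side by side. Eif4a1 was the highest member, with 1023 ± 6.60 TPM in cKO and 1033 ± 18.0 TPM in Ctrl (SD, n = 3 libraries per group throughout). Eif5a followed with 976 ± 25.4 TPM in cKO and 968 ± 18.7 TPM in Ctrl. The lowest tested member was Eif3j2, at a mean of 3.44 TPM over the 6 libraries. All 48 genes together took 0.883%, 0.918% and 0.913% of TPM in cKO replicates 1 to 3, against 0.907%, 0.902% and 0.896% in Ctrl replicates 1 to 3, and the groups overlapped.

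**Figure D1:**
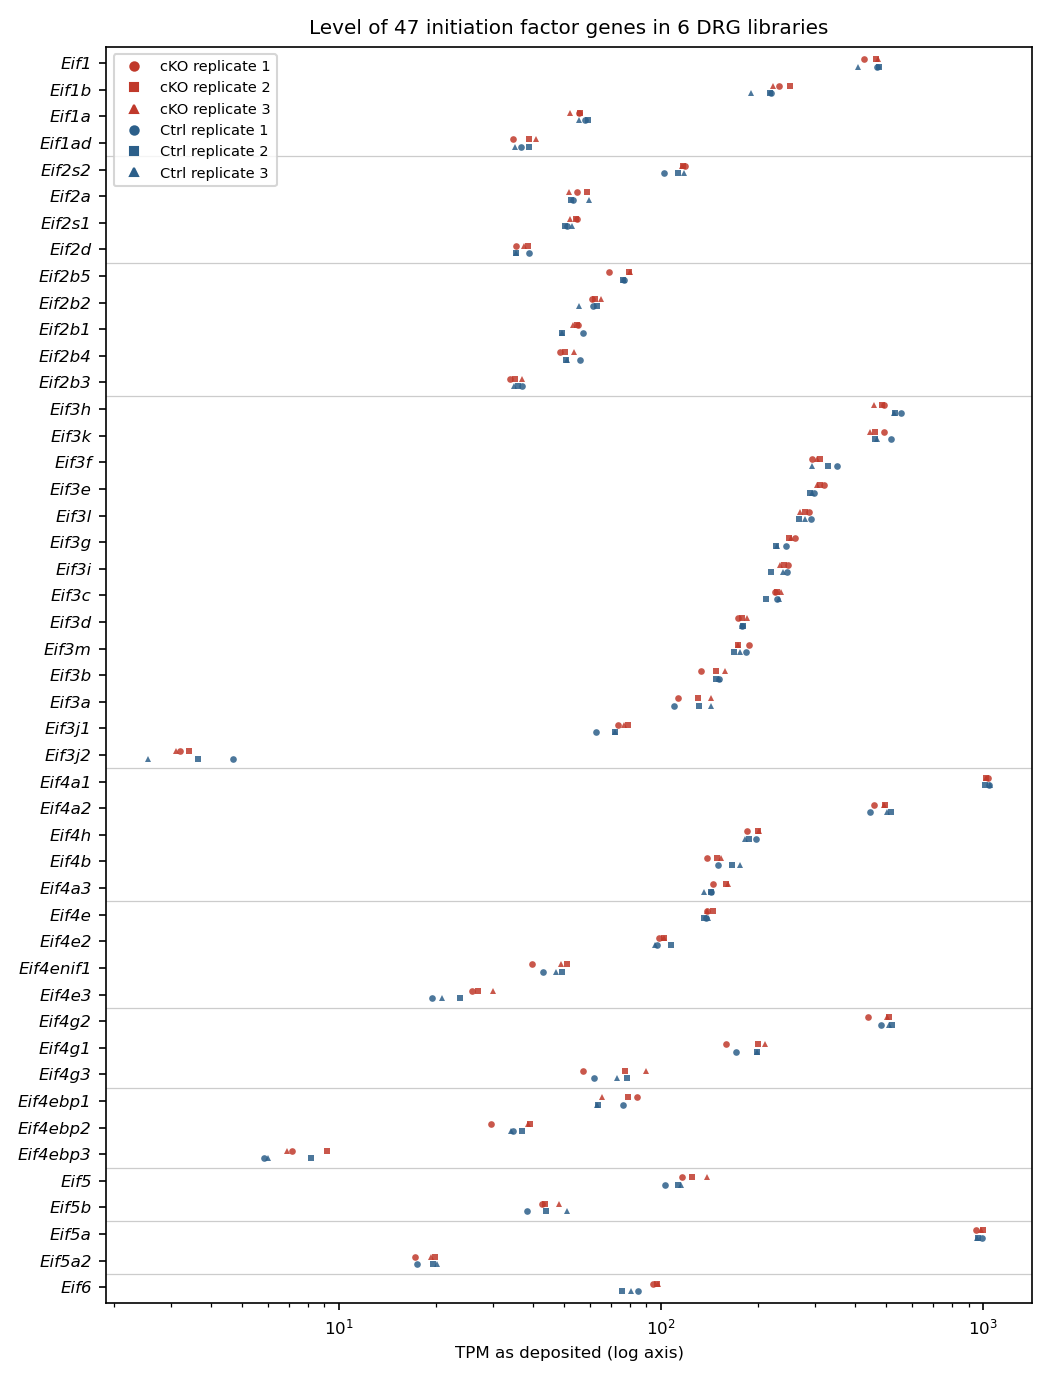
TPM of the 47 tested initiation factor genes (horizontal log axis) in each of the 3 cKO libraries (red, drawn above) and 3 Ctrl libraries (blue), with marker shape for the replicate number and lines between role groups. Eif4a1 and Eif5a stand highest, near 1028 and 972 TPM, and for most genes the red and blue points mix.

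The question put to the series is which transcripts differ between ganglia of cKO and Ctrl embryos. No initiation factor gene was called at an adjusted p under 0.05 in edgeR's quasi-likelihood test, where 0.481% of all tested genes were called. At an unadjusted p under 0.05 the same test gave 4 members, against 10.7% of all tested genes: 3 were higher (background 4.62%) and 1 lower (background 6.1%). limma-voom called 0 members, against 0.37% of all tested genes. DESeq2 called 1 member, Eif4e3 (adjusted p 0.0343), against 1.31% of genes. The log2 fold changes of the 47 genes, cKO over Ctrl, ran between -0.18 and 0.36 with a median of 0.0015, beside a median of 0.0044 over all tested genes; 24 were positive and 23 negative. The sizes were small: 4.26% of members had a log2 fold change beyond 0.2 in either direction, against 18.6% of all tested genes. Among genes with at least 25 CPM, these shares were 4.44% of 45 members and 7.81% of 7973 genes. For 42 of the 47 members the 95% interval of the fold change lay within 1.3-fold in both directions; the exceptions were Eif3j2, Eif4e3, Eif4ebp1, Eif4ebp3 and Eif6.

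**Figure D2:**
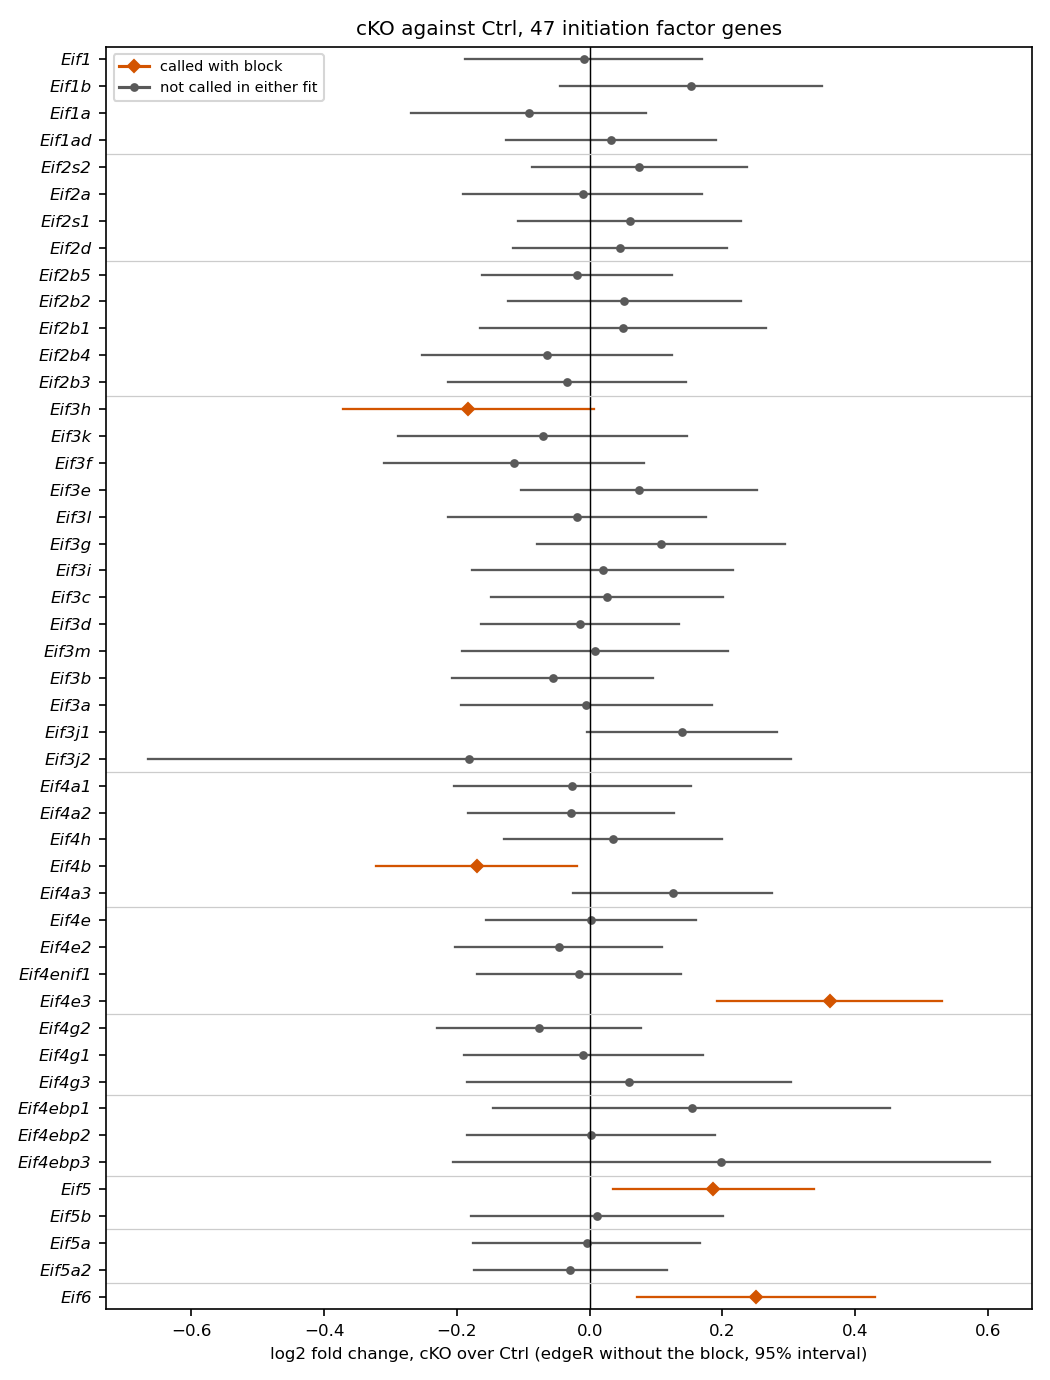
Log2 fold change of cKO over Ctrl (horizontal axis) with its 95% interval for each of 47 initiation factor genes, from the edgeR fit without the replicate block. Orange diamonds mark the 5 genes called once the replicate number was a block; the values run between -0.18 and 0.36.

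With the replicate number as a block, 5 of the 47 members passed, 3 higher and 2 lower in cKO. The share was 10.6%, against 5.33% of all tested genes in that fit. A level of at least 25 CPM was reached by 45 of the 47 members, against 7973 of the 14338 tested genes. The part of level in the shares called was not tested. Higher were Eif4e3, Eif6 and Eif5, which made 6.38% of members against 1.76% of tested genes called higher; lower were Eif3h and Eif4b, 4.26% against 3.56%. limma-voom with the block called 4 of the 5 (not Eif4b), against 4.45% of all tested genes, and DESeq2 with the block called 0 members, against 2.29% of genes.

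Eif4e3 (gene identifier 66892, chromosome 6, 99621879 to 99692873, GRCm38) encodes a cap-binding relative of eIF4E. It had 41.8, 39.6 and 43.6 CPM in cKO replicates 1 to 3, against 31.4, 34.8 and 31.1 CPM in Ctrl replicates 1 to 3. Every cKO library stood above every Ctrl library. The log2 ratio of cKO over Ctrl was 0.36 with an SE of 0.08, and edgeR gave an adjusted p of 0.0714, or 0.00613 with the block. On the TPM scale it had 27.7 ± 2.07 in cKO and 21.4 ± 2.19 in Ctrl. Its estimated counts were not whole numbers, so reads were shared between genes, and its exons overlap those of Gm20696, a protein-coding gene model on the same strand.

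Eif6 (gene identifier 16418, chromosome 2, 155819837 to 155826925), which keeps the large ribosomal subunit from joining early, had 68.9, 63.6 and 63.8 CPM in cKO replicates 1 to 3, against 60.9, 50.1 and 54.0 CPM in Ctrl replicates 1 to 3. The groups did not overlap, although Ctrl replicate 1 came close to the lowest cKO libraries. Over Ctrl, the cKO level differed by 0.25 on the log2 scale (SE 0.08), with an edgeR adjusted p of 0.259, or 0.0164 with the block. An antisense gene, Gm16098, overlaps its exons on the opposite strand; since strand is not stated for the counting, reads of the pair cannot be told apart.

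Eif5 (gene identifier 217869, chromosome 12, 111538101 to 111546753) encodes the factor that makes eIF2 hydrolyse its GTP at the start codon. Its values were 260.1, 248 and 277 CPM in cKO replicates 1 to 3, against 226, 229 and 235 CPM in Ctrl replicates 1 to 3. All cKO libraries were above all Ctrl libraries. Its partner in subunit joining, Eif5b, was not called in either edgeR fit, with a log2 difference of 0.01 between cKO and Ctrl. For Eif5, the cKO level differed by 0.19 on the log2 scale (SE 0.07), with an edgeR adjusted p of 0.344, or 0.0307 with the block. The exons of Eif5 overlap Snora28, a gene of a small nucleolar RNA (snoRNA) on the same strand.

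Eif3h (gene identifier 68135, chromosome 15, 51786563 to 51865461), a subunit of eIF3 and among the most abundant members by TPM, had 280.3, 247 and 232 CPM in cKO replicates 1 to 3, against 311, 274 and 276 CPM in Ctrl replicates 1 to 3. The groups overlapped, because cKO replicate 1 lay above Ctrl replicates 2 and 3, but within each pair the cKO library was lower. Over Ctrl, the cKO level differed by -0.18 on the log2 scale (SE 0.09), with an edgeR adjusted p of 0.488, or 0.0290 with the block. In TPM it was at 479 ± 18.2 in cKO and 538 ± 14.6 in Ctrl.

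Eif4b (gene identifier 75705, chromosome 15, 102073773 to 102097173), the helper of the eIF4A helicase, had 299.8, 289 and 296 CPM in cKO replicates 1 to 3, against 319.9, 327 and 349.5 CPM in Ctrl replicates 1 to 3. Each cKO value was below each Ctrl value. Over Ctrl, the cKO level differed by -0.17 on the log2 scale (SE 0.07), with an edgeR adjusted p of 0.403, or 0.0451 with the block. With the block and library totals in place of TMM scaling, neither Eif4b (adjusted p 0.0867) nor Eif3h (adjusted p 0.0543) was called.

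The 5 calls depended on which pair was present. With the block, all 5 passed without pair 1, the pair that holds the cKO library with the high erythroid and macrophage markers; 8.72% of all genes passed there. Without the block, leaving out pair 1 gave 4 members (all but Eif5), against 5.09% of genes, while leaving out pair 2 or pair 3 gave 0 members, against 0.0556% and 0.0139% of genes. With the block and without pair 2 the 1 member called was Eif4e3 (edgeR adjusted p 0.00465), against 1.81% of genes. Without pair 3 the 2 called were Eif4e3 and Eif6 (edgeR adjusted p 0.0185 and 0.0168), against 5.83% of genes. The summed glial markers also stood higher in every cKO library than in any Ctrl library. The lowest cKO sum (1275 CPM) was nearly equal to the highest Ctrl sum (1273 CPM). Of these glial markers 5 of 5 were positive and 3 called in edgeR with the block (median log2 fold change 0.19). All 7 macrophage markers were positive too, 1 of them called with the block (median 0.44). The 8 erythroid markers were all positive, 0 of them called in either edgeR fit (median 0.49). Their sums were 10658, 2591 and 4218 CPM in cKO replicates 1 to 3. Ctrl replicates 1 to 3 had 4514, 3104 and 4596 CPM, so only cKO replicate 1 stood above them. Of the 5 sensory neuron markers, 2 were called with the block, and 2 of the 5 were positive (median -0.08). Of the 2 tested spinal cord markers, 1 was positive, and their median was 0.99. Of all tested genes, edgeR called 5.33% with the block and 0.481% without it. The part of these cell types in the differences was not tested.

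**Figure D3:**
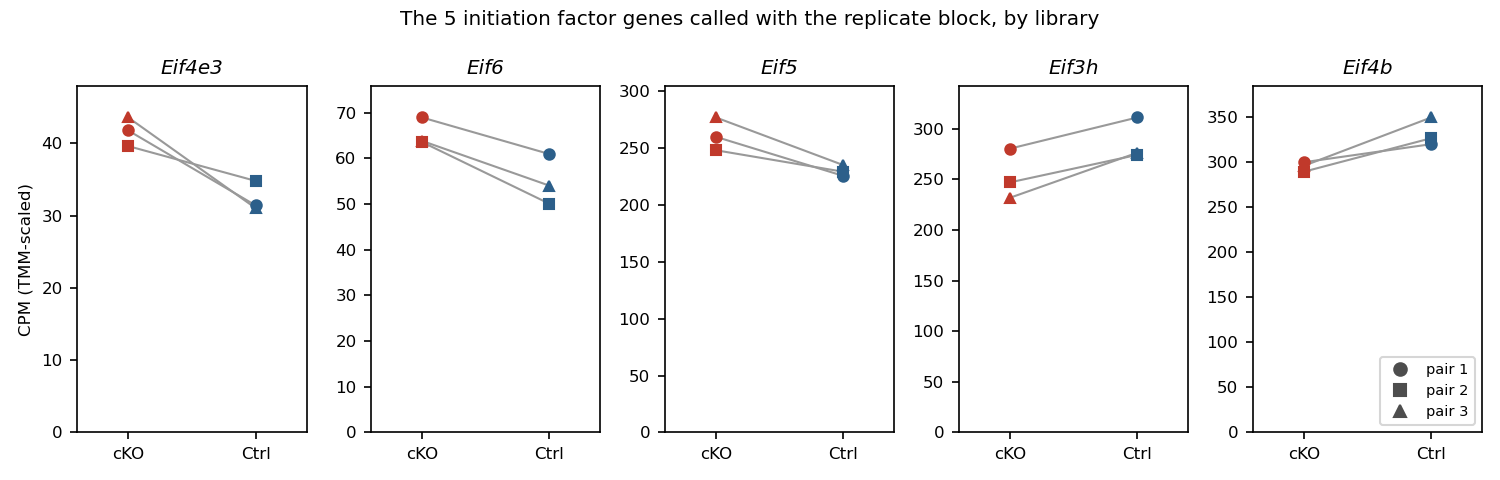
CPM (vertical axes from 0) of the 5 genes called with the block, with each cKO library on the left joined to the Ctrl library of the same replicate number on the right. Eif4e3, Eif6 and Eif5 slope down from cKO to Ctrl in all 3 pairs, and Eif3h and Eif4b slope up.

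The factors eIF1 and eIF1A keep the scanning subunit open until the start codon is met. Among the 4 genes grouped under these names (Eif1, Eif1b, Eif1a and Eif1ad), none was called in either edgeR fit (lowest adjusted p with the block 0.103, for Eif1b). Eif1, the highest of them, had 454 ± 24.3 TPM in cKO and 451 ± 37.2 TPM in Ctrl. Eif1b, a close relative of Eif1, had 88.4, 85.3 and 75.0 CPM in cKO replicates 1 to 3, against 82.3, 74.9 and 66.4 CPM in Ctrl replicates 1 to 3. The groups overlapped, and in each pair cKO was higher. In TPM, Eif1b made up 35.3%, 35.2% and 32.1% of the sum of Eif1 and Eif1b in cKO replicates 1 to 3, against 31.9%, 31.4% and 31.7% in Ctrl replicates 1 to 3. The shares did not overlap, but cKO replicate 3 lay close to the Ctrl shares; no test was made of them.

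Genes of eIF2, eIF2A and eIF2D (4 genes) and of the exchange factor eIF2B (5 genes) had log2 fold changes between -0.06 and 0.07, and none was called in either edgeR fit (lowest adjusted p with the block 0.545). Eif2s2, the beta subunit of eIF2 and the highest of the first group, had 117 ± 1.21 TPM in cKO and 110.9 ± 8.02 TPM in Ctrl. Eif2b5, the catalytic subunit of eIF2B, had 76.3 ± 6.29 TPM in cKO and 76.4 ± 0.387 TPM in Ctrl.

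Of the 14 genes of eIF3, the large complex that binds the small subunit, 13 were not called in either edgeR fit. Over all 14, Eif3h included, the log2 fold changes lay on both sides of 0 (median -0.01). Mean levels over the 6 libraries ran from 509 TPM for Eif3h and 474 TPM for Eif3k to 128 TPM for Eif3a, 72.5 TPM for Eif3j1 and 3.44 TPM for Eif3j2. Eif3j1, which encodes a loosely held subunit, and Eif3j2, its near copy, both had estimated counts that were not whole, so the split of reads between them is uncertain. For Eif3j1 the log2 difference was 0.14 (SE 0.07), with an edgeR adjusted p of 0.485, or 0.175 with the block, and its cKO libraries lay above its Ctrl libraries. For Eif3j2 it was -0.18 (SE 0.22), and its groups overlapped.

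The helicase genes Eif4a1 and Eif4a2 were not called in either edgeR fit. For Eif4a1, which predominates in dividing cells, the log2 difference was -0.03, with a 95% interval of -0.20 to 0.15. For Eif4a2, which is prominent in neurons, the value was -0.03 with an interval of -0.18 to 0.13. Eif4a2 took 30.8%, 32.7% and 32.5% of the summed TPM of the pair in cKO replicates 1 to 3, against 30.0%, 33.7% and 32.4% in Ctrl replicates 1 to 3. Eif4a3, named after its values were seen, differed by 0.12 on the log2 scale (SE 0.07), with an edgeR adjusted p of 0.576, or 0.203 with the block, and its groups did not overlap.

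Of the cap-binding genes, Eif4e itself had 140.5 ± 3.65 TPM in cKO and 138 ± 2.10 TPM in Ctrl, with a 95% interval of -0.16 to 0.16 for its log2 fold change. For Eif4e2, a repressive relative of eIF4E, the log2 difference was -0.05 (SE 0.07). Within the summed TPM of Eif4e, Eif4e2 and Eif4e3, Eif4e3 made up 10.3% ± 0.689 in cKO and 8.24% ± 0.635 in Ctrl, and these shares did not overlap. Eif4e made up 52.2% ± 0.977 in cKO and 53.2% ± 1.98 in Ctrl, with overlap.

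The scaffold genes were not called in either edgeR fit. Eif4g2 encodes a relative of eIF4G that lacks the eIF4E-binding part; it had 483 ± 38.8 TPM in cKO and 504 ± 20.3 TPM in Ctrl. Eif4g2 was lower in CPM in every cKO library than in any Ctrl library; the log2 difference was -0.08 (SE 0.07), with an edgeR adjusted p of 0.788, or 0.298 with the block. For Eif4g1 the log2 fold change was -0.01 (SE 0.08). For Eif4g3 the value was 0.06 (SE 0.11), and it was -0.07 without cKO replicate 3, which had 308 CPM, against 218 to 271 CPM in the other 5 libraries.

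The 3 genes of the 4E-binding proteins, the brakes on cap-dependent initiation, were not called in either edgeR fit (lowest adjusted p with the block 0.267). Eif4ebp1 had 35.3, 29.4 and 24.4 CPM in cKO replicates 1 to 3, against 31.5, 24.2 and 24.4 CPM in Ctrl replicates 1 to 3. The groups overlapped, and the values of the third pair were nearly equal. Eif4ebp1 made up 63.5% ± 5.45 of the summed TPM of the 3 genes in cKO and 61.7% ± 3.41 in Ctrl. The log2 differences were 0.15 (SE 0.14) for Eif4ebp1, 0.0015 (SE 0.09) for Eif4ebp2 and 0.20 (SE 0.19) for Eif4ebp3, which is low, at a mean of 7.21 TPM. For Eif4ebp1 the value rested on single libraries: leaving out cKO replicate 1 gave 0.0093 and leaving out cKO replicate 3 gave 0.27, while it was 0.29, 0.08 and 0.09 when Ctrl replicates 1, 2 and 3 were left out in turn.

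Of eIF5A, the hypusine-carrying factor, Eif5a made up 98.1% ± 0.0922 of the summed TPM of Eif5a and Eif5a2 in cKO and 98.1% ± 0.173 in Ctrl. Their log2 fold changes were -0.0048 (SE 0.08) for Eif5a and -0.03 (SE 0.07) for Eif5a2, neither called.

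Counted over libraries, 5 members were higher and 2 lower in all 3 cKO libraries than in any Ctrl library. Together this is 14.9% of members, against 16.6% of all tested genes, of which 7.83% were higher and 8.77% lower. The 5 were Eif4e3, Eif6, Eif5, Eif3j1 and Eif4a3, and the 2 were Eif4b and Eif4g2. The sign was the same in all 3 pairs for 29.8% of members, against 39.9% of all tested genes.

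Many members also followed the replicate number. In both libraries numbered 1, 20 of 47 members were higher in CPM than in any of the other 4 libraries and 5 were lower, which is 53.2% of members, against 33.3% of all tested genes. The share above was 42.6% of members and 16.5% of all tested genes, and the share below 10.6% and 16.8%. Of the eIF3 genes, 9 of 14 were above the other 4 libraries. Eif3k, an example chosen after its values were seen, had 166, 139 and 133 CPM in cKO replicates 1 to 3, against 173, 142 and 146 CPM in Ctrl replicates 1 to 3. For 4 of the 5 eIF2B genes the number 1 libraries were likewise highest in CPM. Lower in both were Eif3a, Eif4g1, Eif4g3, Eif4enif1 and Eif5a2. On the TPM scale 5 members were above and 8 below (27.7% of members, against 40.4% of all tested genes). There the share above was 10.6% of members and 3.4% of all tested genes, and the share below 17% and 37%. The 5 members above in TPM were 4 of the 14 eIF3 genes and 1 of the 5 eIF2B genes. The authors' FPKM columns summed to 614728 in cKO replicate 1 and 590156 in Ctrl replicate 1, against 548068 to 551964 in the other 4 libraries, and the part of library make-up in this pattern was not tested.

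**Figure D4:**
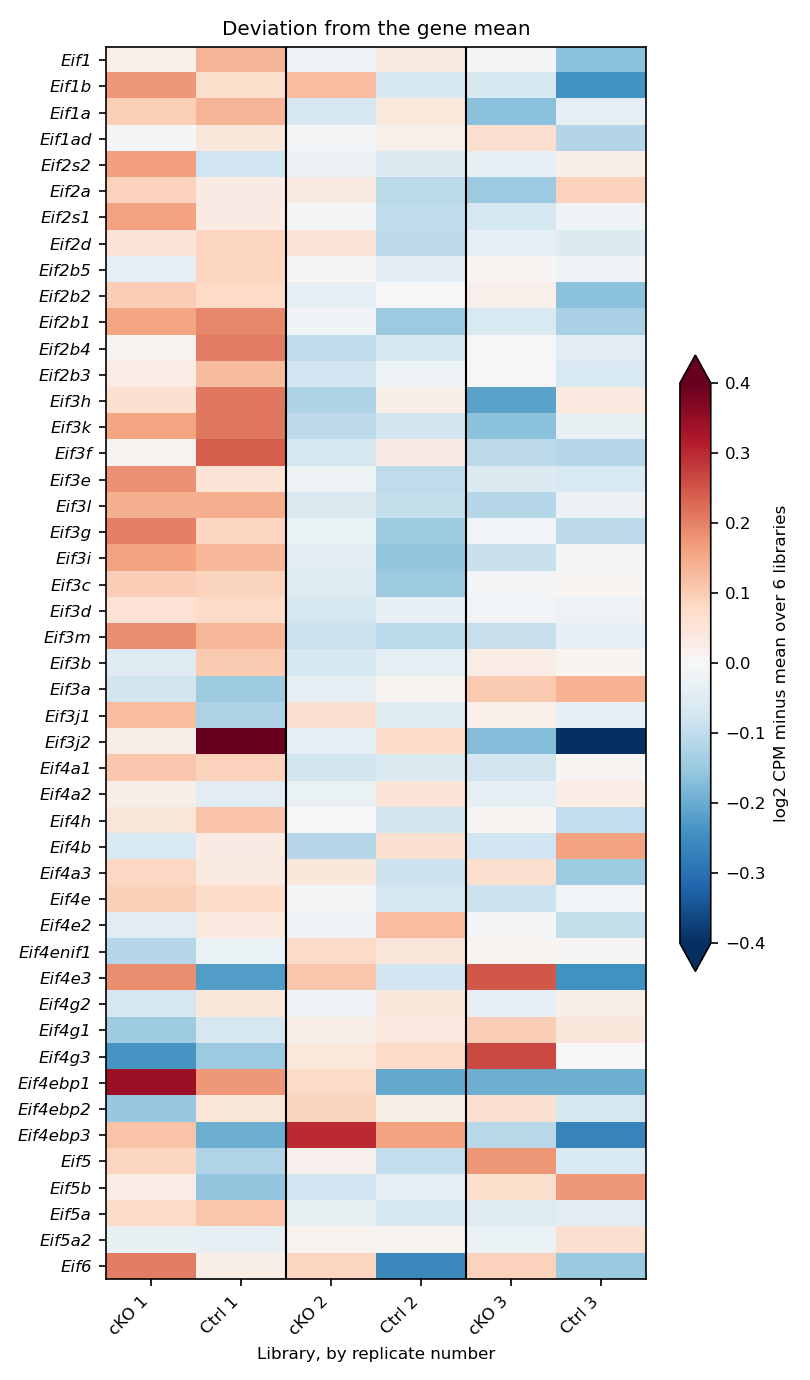
Log2 CPM of each initiation factor gene minus its mean over the 6 libraries (colour, red higher and blue lower, saturating at 0.4), with libraries ordered by replicate number and cKO left of Ctrl in each pair. The left pair is red for most eIF3 and eIF2B genes, 9 of 14 and 4 of 5 of which stood above the other 4 libraries.

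Regulators of initiation outside the family were read from a list of 45 genes, all of which were tested. edgeR without the block called 0 of them, against 0.481% of all tested genes, with 9 at an unadjusted p under 0.05, against 10.7%. limma-voom called 0, against 0.37%, and DESeq2 called 2, Paip2 and Mknk1, against 1.31%. With the block, 4 were higher and 3 lower, 15.6% of the list, against 5.33% of all tested genes. The part of level in this share was not tested either. limma-voom with the block called 7, against 4.45% of all tested genes, and DESeq2 with the block 2, against 2.29%. The median log2 fold change of the list was 0.03.

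The pair of kinases that phosphorylate eIF4E moved in opposite directions with the block. Mknk1 had 53.8, 57.4 and 55.3 CPM in cKO replicates 1 to 3, against 40.7, 47.4 and 43.6 CPM in Ctrl replicates 1 to 3. Its log2 fold change was 0.34 (SE 0.06 and edgeR adjusted p 0.00294 with the block; 0.0809 without it). Mknk2 had 106, 102 and 100.01 CPM in cKO replicates 1 to 3, against 128, 116 and 118 CPM in Ctrl replicates 1 to 3. Its log2 fold change was -0.23 (SE 0.05 and edgeR adjusted p 0.0129 with the block; 0.192 without it). For both genes the groups did not overlap, the one higher and the other lower in every cKO library.

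Pdcd4, which encodes an inhibitor of the eIF4A helicase, had 106, 112 and 117 CPM in cKO replicates 1 to 3, against 89.1, 99.1 and 100.5 CPM in Ctrl replicates 1 to 3 (log2 difference 0.22, edgeR adjusted p 0.0199 with the block). Paip2, an inhibitor of the poly(A)-binding protein, had 195, 177 and 170.2 CPM in cKO replicates 1 to 3, against 157, 134 and 142 CPM in Ctrl replicates 1 to 3 (log2 difference 0.32, edgeR adjusted p 0.00134 with the block). Both were higher in every cKO library than in any Ctrl library. Mlst8, a subunit of the mTOR complexes, fell to 42.0, 46.3 and 45.8 CPM in cKO, against 50.8, 55.2 and 54.9 CPM in Ctrl (log2 difference -0.26, edgeR adjusted p 0.0136 with the block). Ppp1r15a, the stress-induced partner of the phosphatase that acts on eIF2, rose by 0.28 on the log2 scale (edgeR adjusted p 0.0270 with the block). It had 32.1, 28.5 and 28.1 CPM in cKO replicates 1 to 3, against 24.4, 23.9 and 24.6 CPM in Ctrl replicates 1 to 3. Ddx3x, an RNA helicase of scanning, differed by -0.19 (edgeR adjusted p 0.0282 with the block, but 0.0518 with the block and library totals). It had 351, 331 and 360 CPM in cKO replicates 1 to 3, against 385, 366 and 440.4 CPM in Ctrl replicates 1 to 3.

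These 7 calls also leaned on the pairs. With the block, Mknk1 passed without any one pair (edgeR adjusted p 0.0156 without pair 2), and without pair 2 it was the 1 regulator called, against 1.81% of genes. Without pair 1 the count was 8, against 8.72% of genes: 6 of the 7, without Ppp1r15a (edgeR adjusted p 0.0767), and also Paip2b (edgeR adjusted p 0.0160) and Cyfip2 (edgeR adjusted p 0.00706). Without pair 3 it was 6, against 5.83% of genes, the 7 without Ddx3x (edgeR adjusted p 0.145). No gene of the 2 enzymes that make hypusine on eIF5A and none of the 6 repressors of the cap or of eIF4E was called in either fit on all 6 libraries (0 of the 8 at an unadjusted p under 0.05 without the block, and 0 by DESeq2 or limma-voom). With the block, Fmr1 and Dhps had unadjusted p-values of 0.0404 and 0.0322 in edgeR, and the repressor gene Cyfip2 is the one called without pair 1.

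**Figure D5:**
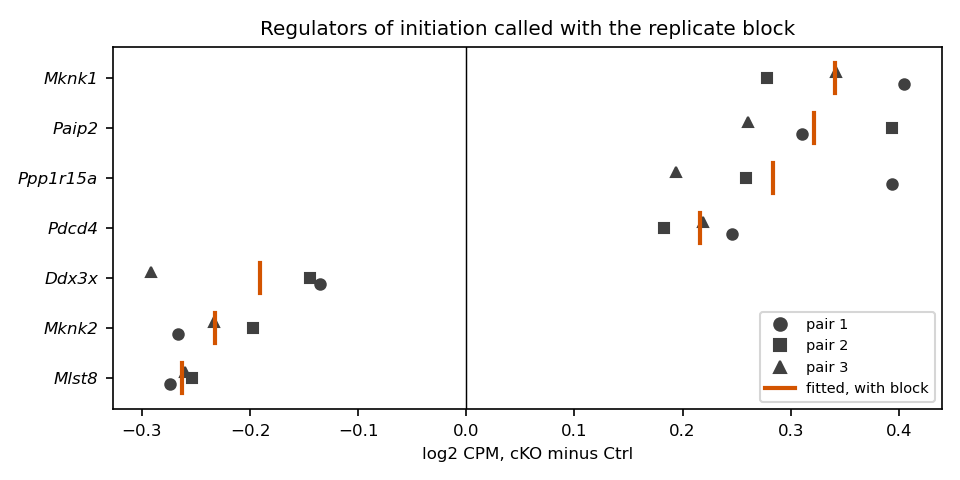
Log2 CPM of cKO minus Ctrl within each of 3 pairs (markers, horizontal axis) and the value fitted with the replicate block (orange bars) for the 7 regulators called with the block. Mknk1, Paip2, Ppp1r15a and Pdcd4 lie right of 0 in all 3 pairs, and Ddx3x, Mknk2 and Mlst8 left of it.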

How the data were processed

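RNA-seq of 3 cKO and 3 Ctrl libraries of DRG was used, made from Trizol-extracted RNA with a kit for mRNA, per the labels' protocols. The submitters' processing notes name RSEM 1.3.1, HISAT2 2.2.1 and Bowtie2 2.4.5, without their role, and the build GRCm38 (mm10); strand is not stated. The authors deposited estimated counts per gene (88.4% to 88.6% whole per library), TPM per library and FPKM per library, each with group means that were not used. Here counts were rounded, filtered with filterByExpr (14338 genes kept, 3633 removed), scaled by TMM and tested with the robust quasi-likelihood test of edgeR 4.0.16 (R 4.3.3), two-sided, Benjamini-Hochberg over all genes, threshold 0.05. SEs come from the F statistic. The p-values set the group difference against the spread between these libraries, or, with the block, against the spread left within pairs. TPM was used for levels without a test. limma 3.58.1 and DESeq2 1.42.0 were alternatives; figures used matplotlib 3.10.9.

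Across genes, the departure of a cKO library from its group mean correlated with that of the Ctrl library of the same number (0.423, 0.240 and 0.204), though cKO 3 correlated slightly more with Ctrl 2 (0.220). In the labels, the sample codes of the cKO and Ctrl libraries of one number share their start. No label states that a number marks a litter. Because every same-number correlation was over 0.1 as well, the numbers were taken to pair the samples. Blocked values stand beside results they change. Role groups, regulators and markers were listed from textbook knowledge; the members and lists were chosen with earlier results of these data known. 1 listed marker is not reported here and was left out of its sum. Genes named are members called in either fit, the highest member by TPM of each role group, related pairs, the largest rise and fall, and regulators called; exceptions are marked. Models without a pair and without the block, and the blocked DESeq2 and limma-voom tests, were added after seeing the data.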

Additional observations from a re-analysis of the deposited data

How the results depend on the processing

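The count of initiation factor genes called, 0 of 47 in edgeR, was also 0 with DESeq2 size factors, library totals, limma-voom, both other filters and each single library left out. Of the 14338 genes tested, edgeR called 69, against 66 with DESeq2 size factors, 44 with library totals and 53 with limma-voom. All genes called numbered 128 without a filter, 66 at 1 CPM in 3 libraries, and 18 to 104 with single libraries left out. The count of members was 1 with DESeq2 (184 of all genes) and 5 with the replicate block (764 of all genes). With the block it was also 5 with DESeq2 size factors (731 of all genes) and 3 with library totals (810 of all genes). With the block and limma-voom it was 4 (638 of all genes), and with the block and DESeq2 0 (265 of all genes). Leaving out a library or a pair, with or without the block, gave 0 to 5 members, with 2 to 1252 of all genes called. The 5 came without pair 1 with the block, which pairs libraries by number, where 1252 of all genes were called. The cause of these shifts was not tested. The median log2 fold change of 0.0015 became 0.028 with library totals and 0.026 with the block and library totals, where the median of all genes was 0.031 in each, and ran from -0.017 without cKO replicate 1 to 0.052 without Ctrl replicate 1. For genes near 0 the sign changed. With library totals the log2 fold changes were 0.018 for Eif1, 0.0075 for Eif2b5, 0.00078 for Eif4a1, 0.017 for Eif4g1 and 0.022 for Eif5a, and with the block added 0.022 for Eif1, 0.0080 for Eif2b5, 0.014 for Eif4g1 and 0.023 for Eif5a. Without a filter Eif4e had -0.0019 and Eif4ebp2 -0.0021. Eif4ebp2 had -0.0019 with limma-voom, -0.00053 with the block, -0.00094 with the block and DESeq2 size factors, -0.0013 with the block and DESeq2, and -0.00041 with the block and limma-voom. Leaving out a library or a pair gave -0.088 to 0.060 for Eif1, -0.013 to 0.14 for Eif2s2, -0.053 to 0.037 for Eif2b5, -0.39 to 0.10 for Eif3j2, -0.089 to 0.015 for Eif4a1, -0.048 to 0.042 for Eif4e, -0.11 to 0.0021 for Eif4e2, -0.065 to 0.056 for Eif4g1, -0.070 to 0.18 for Eif4g3, -0.065 to 0.098 for Eif4ebp2, -0.043 to 0.052 for Eif5a and -0.053 to 0.0031 for Eif5a2. Eif4e3, Eif6, Eif5, Eif3h, Eif4b and the 7 regulators kept their direction in all settings tried. The 95% intervals of Eif3j2 and Eif4ebp3, the tested members with the lowest TPM, were the widest of the 47; the cause was not tested.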
